A study of Mus musculus with 4 samples.

Results

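The genes described here are 9 genes of mouse that make or carry the transmitters of amacrine cells, the inhibitory and modulatory interneurons of the inner retina. They were chosen by function, as genes of transmitter synthesis and transport, and each was found by its symbol among the 52636 genes of the deposited table. All 9 passed the filter on low values, a mean of 10 normalized counts over the 4 libraries, and were tested. Polyadenylated RNA of whole retina was sequenced from 3-week-old mice of the 2 phenotypes in the labels, Q344X (n = 2 libraries) and WT (n = 2 libraries). Q344X is a mutation found in the dominant form of retinitis pigmentosa, in which photoreceptors degenerate. The labels do not give the promoter or locus of the allele, the number of copies, the strain, or the sex and litter of the mice. According to the design text 3 animals of each phenotype were planned and 2 of each were kept, the others having been dropped for RNA quality or as outliers, so the libraries are a selection. The extraction protocol counts 3 Q344X and 2 WT mice. The p-values below set the difference between the phenotypes against the spread between these libraries, with variance pooled over genes.

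Amacrine cells release GABA or glycine onto bipolar cells, ganglion cells and each other, and a few types add a second transmitter. GABA is made by the glutamate decarboxylases GAD67 and GAD65, and GABA and glycine are loaded into vesicles by the same vesicular transporter. Starburst amacrine cells also release acetylcholine and serve motion detection, a sparse type carries the vesicular glutamate transporter VGLUT3, and dopaminergic amacrine cells adjust the retina to light. In the mouse retina horizontal cells also use the vesicular GABA transporter, so that gene is not restricted to amacrine cells.

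Between 18452679 and 19706573 reads fell in genes in each library, a depth worked out from the steps between low values. Summed over 7 lens genes, Q344X replicate 2 had 5716 normalized counts and Q344X replicate 1 had 205651, against 211656 and 256878 in WT. Q344X replicate 2 therefore stood apart in lens RNA. Without this library Slc6a9, Gabra5 and Glra1, alone among the 9 genes and the lists of related amacrine genes, lost their call in the test described below. Their log2 fold changes were then -0.61 ± 0.23, 1.24 ± 0.54 and -0.82 ± 0.30 (SE). The same genes also lost their call when either WT library was left out instead. Of the 30 amacrine genes in a list that left out transmitter genes, 1 was at 0 in 1 WT library (Ptf1a, a factor of developing amacrine cells) and none was at 0 in any other library. Other retinal neurons also express part of this list, so it does not measure amacrine RNA alone. In whole retina, fewer cells of a type and less RNA per cell cannot be told apart.

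The 250 bases before the annotated start of 5 of the genes are shown for the genes the results turn on. They are Slc17a8 and Slc6a9, which passed the test, Chat and Slc18a3, which share a locus and did not pass, and Th, the rarest, which did not pass either. Sequences and start sites are those of RefSeq on GRCm38.p6, the assembly also called mm10, and all 9 genes were matched by symbol. They read 5′ to 3′ on the strand of the gene, and for Slc6a9 and Slc17a8 the outermost of several annotated starts is used. Capitals mark the cAMP response element TGACGTCA, the TATA box TATAAA and the E-box CAGCTG, searched on both strands. None of these motifs overlapped another in the windows shown.
Slc17a8, chr10:89621250-89621499, minus strand: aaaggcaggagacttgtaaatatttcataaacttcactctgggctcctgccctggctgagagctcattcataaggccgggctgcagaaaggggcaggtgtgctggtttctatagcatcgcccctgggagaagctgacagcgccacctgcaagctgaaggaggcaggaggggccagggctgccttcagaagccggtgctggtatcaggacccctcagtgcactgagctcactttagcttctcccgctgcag
Slc6a9, chr4:117835008-117835257, plus strand: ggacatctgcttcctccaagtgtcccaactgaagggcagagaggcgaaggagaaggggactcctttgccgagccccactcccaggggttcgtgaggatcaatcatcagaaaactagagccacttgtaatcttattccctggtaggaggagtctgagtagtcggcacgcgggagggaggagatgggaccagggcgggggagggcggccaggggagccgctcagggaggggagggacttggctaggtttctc
Chat, chr14:32465910-32466159, minus strand: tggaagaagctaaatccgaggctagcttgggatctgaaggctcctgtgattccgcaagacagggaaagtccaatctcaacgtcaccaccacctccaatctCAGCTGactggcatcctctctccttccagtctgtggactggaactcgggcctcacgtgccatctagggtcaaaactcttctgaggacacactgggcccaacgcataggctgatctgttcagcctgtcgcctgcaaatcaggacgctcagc
Slc18a3, chr14:32464851-32465100, minus strand: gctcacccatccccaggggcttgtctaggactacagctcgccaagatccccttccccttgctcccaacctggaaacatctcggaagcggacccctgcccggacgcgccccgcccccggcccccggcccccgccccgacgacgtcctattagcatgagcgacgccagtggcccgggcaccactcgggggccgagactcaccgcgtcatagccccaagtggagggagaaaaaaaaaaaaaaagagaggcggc
Th, chr7:142899996-142900245, minus strand: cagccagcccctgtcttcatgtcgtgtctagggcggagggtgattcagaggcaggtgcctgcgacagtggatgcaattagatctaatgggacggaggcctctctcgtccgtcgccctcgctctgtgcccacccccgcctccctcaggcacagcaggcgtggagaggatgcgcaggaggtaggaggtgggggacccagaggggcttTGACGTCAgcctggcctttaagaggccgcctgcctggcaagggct
The cAMP response element began 45 bases before the start of Th, and 1.55% of 32817 such windows over all genes hold one. The E-box began 150 bases before the start of Chat and is held by 13.0% of windows. The TATA box is held by 12.4%, and the windows of Slc17a8, Slc6a9 and Slc18a3 held none of the 3 motifs. The window of Slc18a3 had 66.0% G and C with 21 CpG pairs, and that of Chat 54.8% with 8.

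Among the 9 genes, Slc17a8 and Slc6a9 fell in Q344X, 0 rose and 7 did not pass (limma, Benjamini-Hochberg adjusted p under 0.05). Over all 16833 genes tested, 9.1% were called lower and 5.46% higher. edgeR on the recovered reads called the same 2 genes lower (adjusted p = 0.0293 for Slc17a8 and 0.0448 for Slc6a9), with 9.26% of all genes called lower and 5.11% higher. An unadjusted p under 0.05 was reached by 4 of the 9, all lower, against 18.7% of all genes lower and 16% higher. The log2 fold change was below 0 in all 9, as in 48.8% of all tested genes, but for Slc32a1, Slc18a3 and Slc5a7 its sign depended on the libraries or the scaling used. The median of the 9 was -0.23, against 0.02 over all tested genes. In 5 of the 9 (Gad2, Slc6a9, Slc17a8, Chat and Th) both Q344X libraries were below both WT libraries, which held for 31.7% of tested genes (63.1% did not overlap in either direction), and in the other 4 the libraries overlapped. With 2 libraries a group, a permutation test of a single gene cannot give a p below 0.333, so each call depends on limma's pooling of variance over genes.

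**Figure D1:**
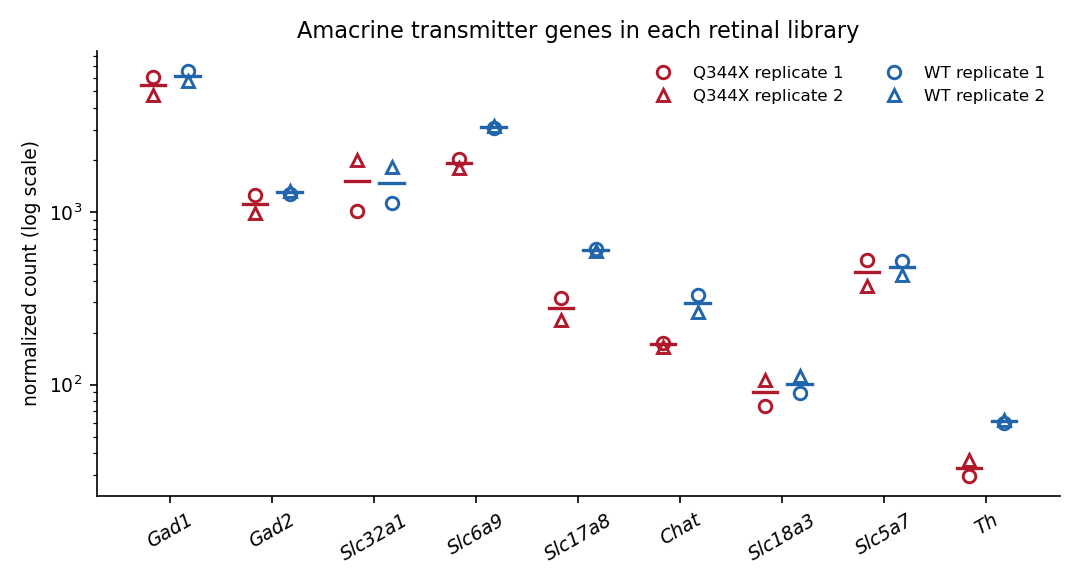
Normalized count (log scale) of each of the 9 genes in the 2 Q344X libraries (red, left of each pair) and the 2 WT libraries (blue, right), with circles for replicate 1, triangles for replicate 2 and a bar at each group's mean. Slc17a8, Slc6a9, Chat, Th and Gad2 have both Q344X points below both WT points, and the points overlap for Gad1, Slc32a1, Slc18a3 and Slc5a7.

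**Figure D2:**
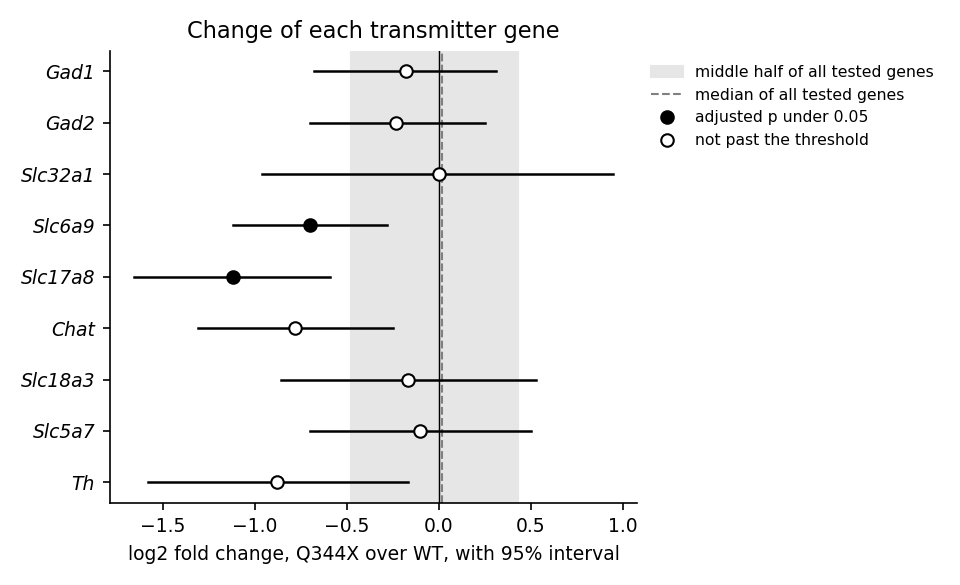
Log2 fold change of Q344X over WT for each gene with its 95% interval from limma, filled where the adjusted p is under 0.05. The grey band spans the quartiles of all tested genes, from -0.48 to 0.43, and Slc17a8 (-1.12), Th (-0.88), Chat (-0.78) and Slc6a9 (-0.70) lie to the left of it.

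The genes of GABA synthesis did not pass the test. Gad1, which encodes GAD67, the form that supplies most GABA in neurons (ENSMUSG00000070880, chromosome 2, 70553072 to 70602014, plus strand, GENCODE M21 on GRCm38), was at 6069 and 4776 normalized counts in Q344X and at 6547 and 5707 in WT. The Q344X and WT libraries overlapped, and the log2 fold change was -0.18 ± 0.20 (SE), with a 95% interval of -0.68 to 0.31 (limma, adjusted p = 0.552). Gad2, which encodes GAD65, the form attached to synaptic vesicles (ENSMUSG00000026787, chromosome 2, 22622205 to 22693874, plus strand), was at 1249 and 986 in Q344X and at 1275 and 1324 in WT. Here Q344X replicate 2 was the low library and Q344X replicate 1 lay close to WT, with a log2 fold change of -0.23 ± 0.19 and an interval of -0.70 to 0.25 (limma, adjusted p = 0.443). Gad1 had 4.86 and 4.85 times the normalized count of Gad2 in the Q344X libraries and 5.13 and 4.31 times in the WT libraries, so their ratio overlapped between the genotypes.

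Slc32a1, the vesicular GABA and glycine transporter VGAT (ENSMUSG00000037771, chromosome 2, 158610767 to 158615748, plus strand), differed most between libraries of 1 genotype. It was at 1017 and 2007 normalized counts in Q344X and at 1122 and 1826 in WT. Replicate 2 was the higher library in both genotypes, the groups overlapped throughout, and the log2 fold change of -0.00 ± 0.39 (SE) had a wide interval of -0.96 to 0.95 (limma, adjusted p = 0.996). In this fit a change of up to about that size in either direction was not detectable for this gene. With a correction for gene length and GC content Slc32a1 had -0.28 ± 0.23 (limma, adjusted p = 0.394). An antisense gene, Gm14205, shares 697 bases, or 24.9%, of its exon length and had 4.95 and 7.68 normalized counts in Q344X and 7.28 and 7.02 in WT.

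The genes that remove or break down GABA went both ways. Among 8 tested genes for GABA uptake, precursor supply and breakdown, 1 rose, 2 fell and 5 did not pass, with a median log2 fold change of -0.25. Over all tested genes 9.1% were called lower and 5.46% higher, shares that also apply beside each list below. Slc6a12, the betaine and GABA transporter, fell to 46.5 and 25 normalized counts in Q344X, against 150 and 124 in WT (log2 fold change -1.97 ± 0.36, SE, limma, adjusted p = 0.0254). Both Q344X libraries lay below WT, and the call held with any 1 library left out.

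On the receiving side, 2 of 18 tested GABA receptor genes, which here include the scaffold gephyrin, fell, 1 rose and 15 did not pass. These counts were near the shares over all tested genes, 9.1% lower and 5.46% higher, and the median log2 fold change was -0.24. Gabrr2, a subunit of the GABA receptor of bipolar cells, fell to 539 and 432 normalized counts in Q344X, against 1454 and 1257 in WT (log2 fold change -1.49 ± 0.20, SE, limma, adjusted p = 0.0126). Gabra5, an alpha subunit of the GABA-A receptor, rose and was rare in both groups, at 37.6 and 45.1 in Q344X and 15.6 and 15.0 in WT (1.37 ± 0.34, limma, adjusted p = 0.0483). Gabrr2 passed with any 1 library left out, and Gabra5 had an adjusted p of up to 0.163 (limma). Gabbr1, a GABA-B receptor subunit and among the most abundant of the list, had 0.19 ± 0.18, not past the threshold.

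Slc6a9, the glycine transporter GlyT1 that marks glycinergic amacrine cells in the mouse retina (ENSMUSG00000028542, chromosome 4, 117834506 to 117875198, plus strand), fell. It was at 2034 and 1803 normalized counts in Q344X and at 3072 and 3160 in WT. The Q344X libraries lay below both WT libraries and the libraries of each genotype were close to each other, giving a log2 fold change of -0.70 ± 0.17 (SE), with an interval of -1.12 to -0.28 (limma, adjusted p = 0.0476). The call is at the threshold. It was lost without WT replicate 1 (limma, adjusted p = 0.300), WT replicate 2 (0.283) or Q344X replicate 2 (0.0740), and under 4 of the other settings, with the fold change between -0.79 and -0.61 throughout.

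The exons of Slc6a9 share 1429 bases, 27.8% of their length, with those of Ccdc24 on the opposite strand. Ccdc24 was at 223 and 217 normalized counts in Q344X and at 1759 and 1862 in WT, a log2 fold change of -3.04 ± 0.17 (SE; limma, adjusted p = 0.00342), so a gene that overlaps Slc6a9 moved further the same way. Whether the counting used strand is not stated in the labels. Across the table, 75.2% of 254 genes whose exons lie wholly inside exons of the other strand were above 0, against 23.2% of 181 genes wholly inside exons of the same strand, and a read inside exons of both strands can be given to 1 gene only where its strand is used. Whether any reads counted for Slc6a9 came from Ccdc24 was not tested.

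Among 10 tested genes of glycine receptors, glycine breakdown and the second glycine transporter, Gldc rose, Glra1 and Glra3 fell and 7 did not pass, with a median log2 fold change of -0.39. Glra3, an alpha subunit of the glycine receptor, was at 558 and 511 normalized counts in Q344X, against 1000 and 997 in WT (-0.90 ± 0.17, SE, limma, adjusted p = 0.0280). Glra1, another alpha subunit, was at 147 and 121, against 291 and 231 in WT (-0.96 ± 0.23, limma, adjusted p = 0.0482). Gldc, the glycine decarboxylase of glycine cleavage, was at 1678 and 1683, against 804 and 950 in WT (0.94 ± 0.18, limma, adjusted p = 0.0275). For these 3 genes too no Q344X value fell within the WT range, and each had an adjusted p above the threshold with a library left out (limma, up to 0.336 for Glra1, 0.225 for Gldc and 0.189 for Glra3). Glrb, the beta subunit and the most abundant receptor gene of this list, had 0.08 ± 0.17, not past the threshold.

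Slc17a8, which encodes the vesicular glutamate transporter VGLUT3 (ENSMUSG00000019935, chromosome 10, 89574020 to 89621253, minus strand), had the lowest fold change of the 9. It was at 318 and 237 normalized counts in Q344X and at 608 and 591 in WT. Its Q344X level was 0.46 times the WT level on the log2(value + 1) scale, a log2 fold change of -1.12 ± 0.22 (SE), with an interval of -1.66 to -0.59 (limma, adjusted p = 0.0280). Of all tested genes, 10.1% had a fold change as low or lower, which places it in the lower tail but among many others. Its call was lost without WT replicate 1 (limma, adjusted p = 0.122), without WT replicate 2 (0.0855) and when every gene above 0 was tested (0.0748), and it held without Q344X replicate 2, the library with little lens RNA.

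The other vesicular glutamate transporters did not pass. Slc17a7, which encodes VGLUT1 of photoreceptors and bipolar cells, was at 13350 and 23328 normalized counts in Q344X and at 21022 and 31336 in WT (log2 fold change -0.54 ± 0.34, SE, limma, adjusted p = 0.302). Slc17a6, which encodes VGLUT2 of ganglion cells, was at 1782 and 1581 in Q344X and at 1217 and 1292 in WT, with both Q344X libraries above WT (0.42 ± 0.17, limma, adjusted p = 0.149). Whether Slc17a8 differs from these 2 in its change was not tested.

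None of the 3 cholinergic genes, whose main site in the retina is the starburst amacrine cell, passed the test, and differences between their fold changes were not tested. Chat, choline acetyltransferase, which makes acetylcholine (ENSMUSG00000021919, chromosome 14, 32408203 to 32465989, minus strand), was at 175 and 166 normalized counts in Q344X and at 330 and 263 in WT. Both Q344X libraries were below WT and within 10 counts of each other, with a log2 fold change of -0.78 ± 0.22 (SE) and an interval of -1.31 to -0.25, but the adjusted p of 0.0626 missed the threshold (limma). Among the settings that kept every library, it passed only with a correction for gene length and GC content (limma, adjusted p = 0.0422). That setting called 11.7% of 16800 genes lower. Chat missed the threshold with quantile normalization (-0.65 ± 0.22, limma, adjusted p = 0.101) and with every gene above 0 tested (0.114). The log2 fold change was -0.62 ± 0.42 without WT replicate 1 and -0.95 ± 0.41 without WT replicate 2. Without Q344X replicate 1 it was -0.82 ± 0.28, and without Q344X replicate 2 it was -0.74 ± 0.29.

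Slc18a3, the vesicular acetylcholine transporter VAChT (ENSMUSG00000100241, chromosome 14, 32462438 to 32464850, minus strand), was at 75.2 and 106 normalized counts in Q344X and at 89.4 and 112 in WT. Slc5a7, the choline transporter that feeds acetylcholine synthesis (ENSMUSG00000023945, chromosome 17, 54273590 to 54299034, minus strand), was at 529 and 371 in Q344X and at 521 and 432 in WT. Both genes overlapped between the genotypes, with log2 fold changes of -0.17 ± 0.28 (interval -0.86 to 0.53; limma, adjusted p = 0.705) and -0.10 ± 0.24 (interval -0.70 to 0.50; limma, adjusted p = 0.801). Slc18a3 is a single-exon gene that lies between the first and second exon blocks of Chat, from 1139 to 3551 bases after the start of Chat, on the same strand and with no exon base in common.

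Within each library, Chat had 0.331 and 0.447 times the normalized count of Slc5a7 in Q344X and 0.633 and 0.608 times in WT. Chat had 2.33 and 1.57 times the count of Slc18a3 in Q344X and 3.69 and 2.34 times in WT. Both ratios were lower in the 2 Q344X libraries than in either WT library although the nearest 2 libraries of the second ratio almost touched. The ratio of Slc18a3 to Slc5a7 overlapped, at 0.142 and 0.284 in Q344X and 0.172 and 0.260 in WT. These ratios were chosen with the values known and are a description.

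**Figure D3:**
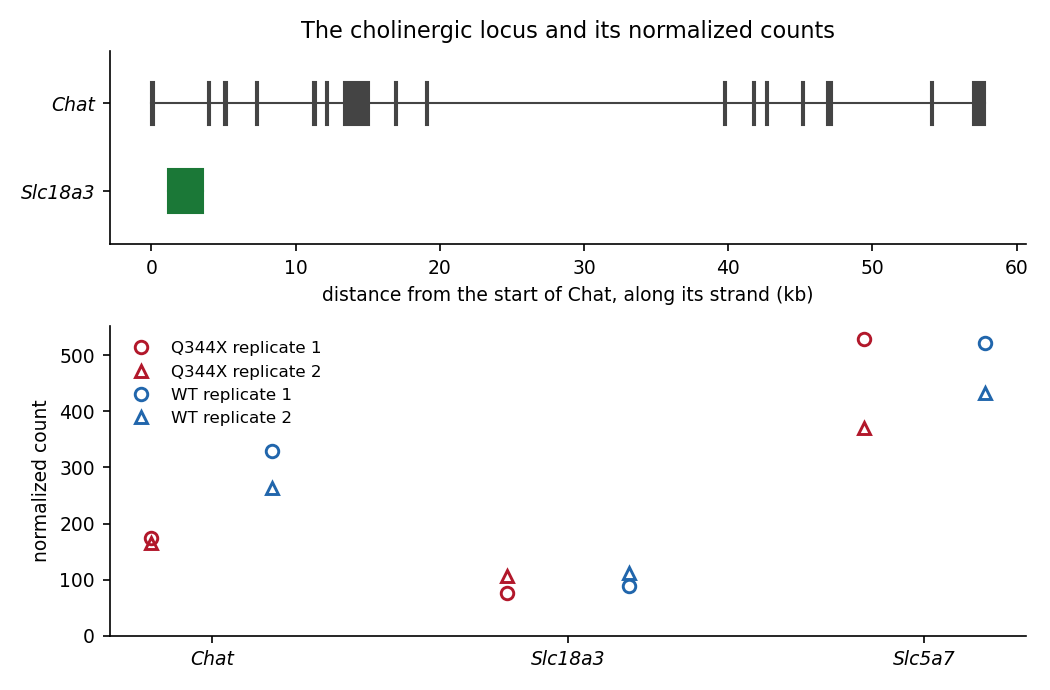
Top, exon blocks of Chat and Slc18a3 by distance from the start of Chat in kb, with Slc18a3 in the first intron of Chat. Bottom, normalized counts of the 3 cholinergic genes in the Q344X (red, left) and WT (blue, right) libraries, with circles for replicate 1 and triangles for replicate 2. Only Chat has both Q344X points (175 and 166) below both WT points (330 and 263).

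Of 19 other genes tested from acetylcholine breakdown, choline supply, acetylcholine receptors and starburst markers, Chrna3 rose, 0 fell and 18 did not pass, with a median log2 fold change of -0.14. Chrna3, a nicotinic receptor subunit found in ganglion cells, was at 257 and 214 normalized counts in Q344X, against 119 and 101 in WT (1.09 ± 0.23, SE, limma, adjusted p = 0.0326, and up to 0.163 with 1 library left out). The 4 starburst markers of the list lay on both sides of 0 and did not pass, with 0.53 ± 0.24 for Megf10, -0.14 ± 0.22 for Megf11, 0.12 ± 0.29 for Sox2 and -0.78 ± 0.24 for Slc2a13. Glia also express Megf10 and Sox2. Slc2a13 was at 688 and 459 normalized counts in Q344X and at 1004 and 932 in WT, with both Q344X libraries below WT. The most abundant genes of the list, Slc44a1 and Chrna6, had -0.36 ± 0.18 and 0.06 ± 0.17, not past either.

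Th, tyrosine hydroxylase, the rate-limiting enzyme of dopamine synthesis (ENSMUSG00000000214, chromosome 7, 142892752 to 142931128, minus strand), was the rarest of the 9. It was at 29.7 and 36.5 normalized counts in Q344X, which are 30 and 38 reads, and at 60.3 and 62.2 in WT, which are 58 and 62 reads. Both Q344X libraries were below WT, with a log2 fold change of -0.88 ± 0.29 (SE) and an interval of -1.58 to -0.17, and the adjusted p of 0.0923 missed the threshold (limma). No setting tried brought it past, the nearest being the length and GC correction (limma, adjusted p = 0.0570).

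Of 14 other tested genes of dopamine synthesis, storage, receptors and breakdown, 0 rose and 0 fell in limma, 1 had an unadjusted p under 0.05 (Spr, a reductase of cofactor synthesis, log2 fold change -0.74 ± 0.29, SE), and the median was -0.26. Slc18a2, which loads dopamine into vesicles, was at 120 and 80.6 normalized counts in Q344X and at 188 and 135 in WT (log2 fold change -0.69 ± 0.30, SE, limma, adjusted p = 0.165). Ddc, which makes dopamine from DOPA, was near the lower limit, at 19.8 and 13.4 in Q344X and 22.9 and 18.0 in WT. Slc6a3, the dopamine transporter, was at 2.97 and 0 in Q344X and at 9.36 and 1 in WT and was not tested. Drd4, a dopamine receptor of photoreceptors, and Qdpr, a pterin reductase, were the most abundant and had -0.42 ± 0.27 and 0.28 ± 0.24, not past the threshold.

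Per kb of exon, the 9 genes spanned a wide range of levels, and 3 of them (Gad1, Gad2 and Th) held the same rank in both genotypes. Gad1 was highest, with 710 ± 120 normalized counts per kb in Q344X and 802 ± 77.7 in WT (SD, n = 2 each). Next came Slc32a1, at 541 ± 250 in Q344X and 527 ± 178 in WT, and Slc6a9, at 373 ± 31.8 and 606 ± 12.1, followed by Gad2, at 190 ± 31.7 in Q344X and 221 ± 5.96 in WT. Slc32a1 overlapped with Slc6a9 in both genotypes, and with Gad1 in Q344X. The rarer genes were Slc17a8, at 58.8 ± 12.1 in Q344X and 127 ± 2.67 in WT, Slc5a7, at 79.7 ± 19.7 and 84.4 ± 11.1, Chat, at 36.3 ± 1.38 and 63.0 ± 10.1, Slc18a3, at 37.5 ± 8.89 and 41.8 ± 6.70, and Th, at 14.0 ± 2.03 in Q344X and 25.9 ± 0.552 in WT. In WT, both values of Slc17a8 lay above both of Slc5a7, and both values of Chat above both of Slc18a3. In Q344X the values of each of these pairs overlapped. Within each Q344X library Slc5a7 was above Slc17a8 (93.7 against 67.3 in replicate 1, 65.8 against 50.2 in replicate 2). The order of Chat and Slc18a3 differed between the Q344X libraries.

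The 3 genes most like Slc17a8 over the 4 libraries, by Euclidean distance of log2 values centred on their mean among 12257 genes with a mean of at least 50, were Trove2, Prox2 and Bmpr1b, at distances of 0.045, 0.050 and 0.056. For Slc6a9 they were Zfp273, Pdia6 and Sgip1, at 0.014, 0.029 and 0.030. With 4 libraries and this many genes such distances are a description of these libraries.

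Amacrine genes that do not handle transmitter stood mostly on the other side of 0. Of 28 tested genes of this list, which holds transcription factors, calcium-binding proteins, a gap junction gene and synaptic and neuronal genes that other retinal neurons also express, 3 rose, 1 fell and 24 did not pass, with a median log2 fold change of 0.37. Both Q344X libraries were above both WT libraries in 15 of the 28 and below in 3, against 31.4% above and 31.7% below over all tested genes. The summed level of the list was 73922 and 75418 normalized counts in Q344X and 63736 and 68576 in WT. Those that rose were Neurod6 (1.79 ± 0.43, SE), Stx1a (1.05 ± 0.19) and Ebf3 (0.73 ± 0.17). Neurod6 is a factor of an amacrine subtype that uses neither GABA nor glycine. It was rare, at 51.5 and 46.1 normalized counts in Q344X and 9.36 and 19.0 in WT (limma, adjusted p = 0.0464). Stx1a is a syntaxin of conventional synapses, and Ebf3 a factor of glycinergic amacrine cells. Pvalb, parvalbumin, fell (-1.47 ± 0.31). Each of the 4 had an adjusted p above the threshold with a library left out (limma, up to 0.118 for Pvalb and 0.317 for Ebf3). The most abundant, Snap25 and Car2, had -0.21 ± 0.19 and -0.05 ± 0.19, not past the threshold.

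Of 11 tested genes of amacrine neuropeptides and nitric oxide synthesis, Cck and Penk fell, 0 rose and 9 did not pass, with a median of 0.16. Cck, cholecystokinin, was at 10.9 and 19.2 normalized counts in Q344X, against 115 and 173 in WT (log2 fold change -3.20 ± 0.39, SE, limma, adjusted p = 0.0100, and past the threshold with any 1 library left out). Penk, the enkephalin precursor, was at 359 and 420, against 774 and 835 in WT (-1.05 ± 0.19, limma, adjusted p = 0.0245, and up to 0.126 with 1 library left out). Cartpt, the most abundant, was at 1057 and 1445 in Q344X and 1513 and 1925 in WT (-0.46 ± 0.23, limma, adjusted p = 0.214).

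**Figure D4:**
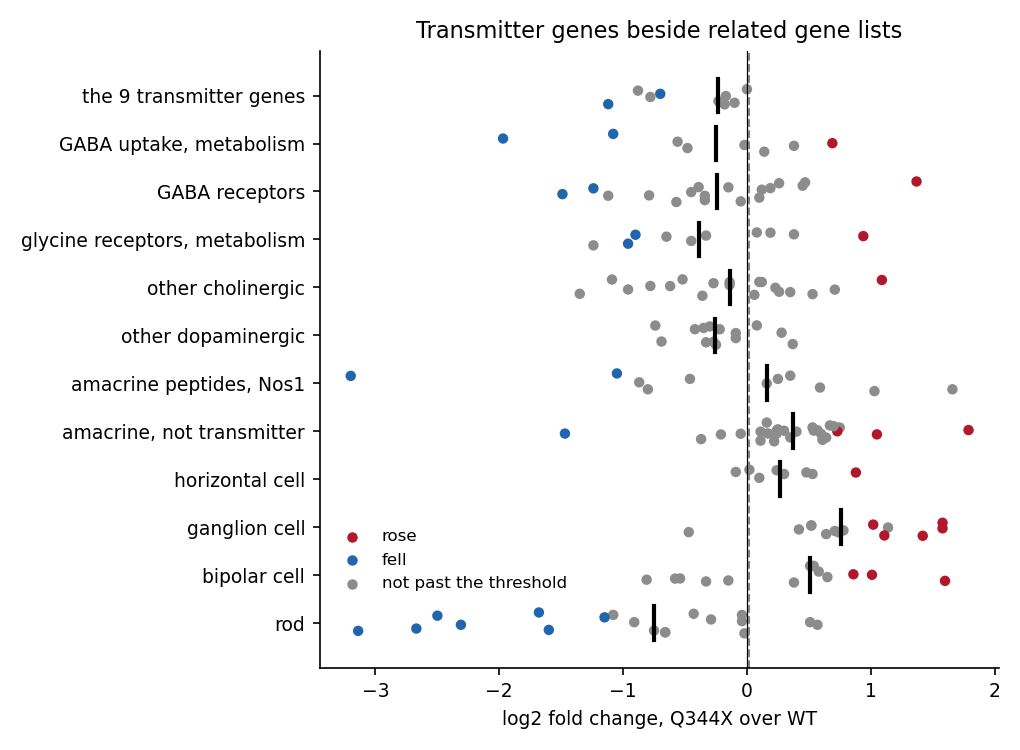
Log2 fold change of Q344X over WT for the 9 transmitter genes, related gene lists and marker lists of other retinal neurons, 1 point per tested gene and a black bar at the median of each list. Points are red where a gene rose, blue where it fell and grey where it did not pass, and the dashed line is the median of all tested genes, 0.02. The transmitter genes have a median of -0.23 and the amacrine genes outside transmitter handling 0.37.

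Markers of other retinal cells moved as well, and their part in the values above was not tested. Of 14 ganglion cell genes 5 rose and 0 fell (median log2 fold change 0.76, summed level 33166 and 37533 normalized counts in Q344X and 18874 and 20958 in WT). Of 8 horizontal cell genes, which bear on Slc32a1, 1 rose and 0 fell (median 0.27, summed level 16863 and 15247 in Q344X and 13510 and 13298 in WT). Of 13 bipolar cell genes 3 rose and 0 fell (median 0.51), and of 11 Müller glia genes 1 rose and 3 fell (median -0.16). Photoreceptor genes were lower, with 7 of 19 rod genes (median -0.75, summed level 586669 and 686381 in Q344X and 1304136 and 1506285 in WT) and 5 of 10 cone genes (median -0.93) that fell and 0 that rose. Of 11 microglia genes 0 passed in limma (median 0.25), of 5 astrocyte genes 1 rose (0.21) and of 7 tested pigment epithelium genes 2 rose (0.40). Of 7 lens genes 0 passed in limma (median -3.03), with the lowest value of each in Q344X replicate 2, and of 20 ribosomal protein genes 3 rose (0.85).

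Part of the spread between libraries of 1 genotype followed base composition. In the third of tested genes with the highest GC content the median log2 difference of replicate 2 minus replicate 1 was 0.25 in Q344X and 0.19 in WT, and in the third with the lowest GC content it was -0.17 in Q344X and -0.11 in WT. Slc32a1 and Slc18a3, with 61.9% and 61.2% GC in their longest transcript, had the highest such differences of the 9, at 0.98 and 0.48 in Q344X and 0.70 and 0.33 in WT. Slc5a7, with 40.8% GC, had -0.51 in Q344X and -0.27 in WT. Not every gene followed this order: Chat, with 54.3% GC, had -0.08 in Q344X and -0.33 in WT, and Slc6a9, with 57.0% GC, had -0.17 in Q344X and 0.04 in WT. Slc17a8, with 44.0% GC, had -0.42 in Q344X and -0.04 in WT. For Slc17a8 and Slc6a9 these differences were smaller than that between genotypes. Across 16833 genes the differences of the 2 genotypes had a Spearman correlation of 0.61, a description whose sign depends on numbers given in accession order. With each library corrected for gene length and GC content, Slc17a8 had a log2 fold change of -0.98 ± 0.18 and Slc6a9 of -0.77 ± 0.18 (SE), and 11.7% of 16800 genes were called lower.

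**Figure D5:**
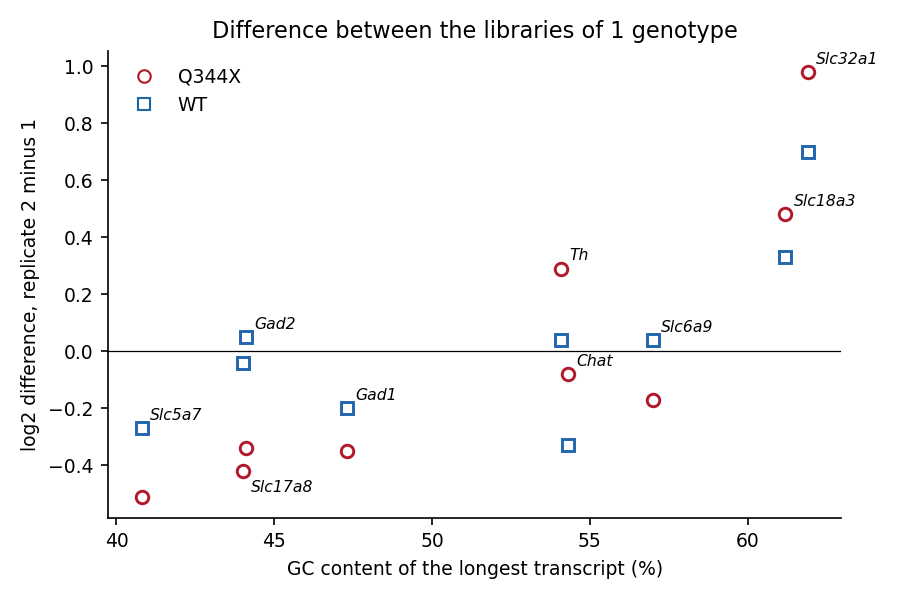
Log2 difference between the 2 libraries of a genotype, replicate 2 minus replicate 1, for each of the 9 genes against the GC content of its longest transcript in percent, with Q344X as red circles and WT as blue squares. Slc32a1 (0.98 and 0.70) and Slc18a3 (0.48 and 0.33) lie highest at the GC-rich end, and Slc5a7 (-0.51 and -0.27) lies low at the other.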

How the data were processed

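Polyadenylated RNA of retina was sequenced from directional libraries, per the labels' protocols. The submitters' processing notes name FastQC, Trim Galore 0.4.4, STAR, featureCounts, DESeq2 1.16.1 and the build mm10, with no roles; the annotation and strand setting are not stated. The deposited signal is a normalized count per Ensembl gene, which the values show to be gene counts divided by a size factor for each library, since 100% of values were within 0.1 of a whole number of reads. Depth and precision follow from these reads, from 30 to 6295 for a described gene in a library.

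Of 52636 genes, 52403 had a symbol in the reference tables, and 16833 with a mean of at least 10 were tested. Log2(normalized count + 1) was fitted on phenotype with limma 3.58.1 (R 4.3.3), two-sided, with variances moderated on a mean trend and Benjamini-Hochberg adjustment over all genes tested. A fold change on this scale understates the change of low genes. SD and SE refer to n = 2 libraries a group, numbered in accession order. edgeR 4.0.16 was run on the recovered reads. The fit was tested on simulated data. Positions, exon lengths and GC content are from GENCODE M21. The described genes and the lists were chosen with earlier results of these data known. The text names all 9 genes, and from the lists of related amacrine genes each one past the threshold and the 2 with the highest mean. Megf10, Megf11, Sox2, Slc2a13, Slc18a2, Ddc, Slc6a3, Spr and Ptf1a were added after their values were seen. Some genes that this rule selects are not reported here. Marker lists of other cells are given by their counts. Alternatives changed the pseudocount, filter, scaling, moderation, base composition and libraries used.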

Additional observations from a re-analysis of the deposited data

How the results depend on the processing

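All genes tested gave 919 higher and 1531 lower in limma. Testing every gene above 0 gave 153 and 383, correcting for length and GC content 1969 higher, and leaving out 1 library gave 388 to 2353 higher and 666 to 2973 lower. Slc6a9 kept a log2 fold change of -0.70 but missed the threshold with every gene above 0 tested (limma, adjusted p = 0.0915), a minimum mean of 50 (0.0508), robust moderation (0.0502) and moderation without a trend (0.0846), and had -0.79 to -0.61 with 1 library left out. Slc17a8 had -1.12 with every gene above 0 tested (limma, adjusted p = 0.0748) and -1.33 to -0.91 with 1 library left out. With every library kept, Chat passed only with the length and GC correction, at -0.80, and it ran from -0.95 to -0.62 with 1 library left out. With 1 library left out Gad1 ran from -0.36 to -0.01, Gad2 from -0.40 to -0.06 and Th from -1.02 to -0.73. The sign of 3 genes turned: Slc32a1 (-0.49 to 0.49 with 1 library left out, 0.01 in edgeR), Slc18a3 (-0.41 to 0.07, and 0.07 with quantile normalization) and Slc5a7 (-0.35 to 0.16, and 0.05 with the length and GC correction). The cause of these shifts was not tested. In each fit without a library, the lone sample of a group is assumed to vary like the other group. Th was not tested at a minimum mean of 50. Of 47 called genes of the lists, 0 turned and 9 kept their call under each of the 14 alternatives that tested them. The edgeR alternative was chosen after seeing the data. No paired analysis was possible because the labels give no replicate numbers that tie Q344X to WT libraries. Th had 30 to 62 reads a library, so counting error is larger for it than for the other 8 genes.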
